A study of Mus musculus with 3 samples.

Results

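The condyle of mice heterozygous for a Dspp deletion was set against the wild-type condyle gene by gene. Of the 26970 genes in the deposited expression table, 13026 averaged at least 1 FPKM across the 3 genotypes and were compared. FPKM is the number of sequenced fragments of a gene scaled to the length of its transcript and to the depth of the library, so it can be read as a level per length. The difference of a gene was taken as the log2 ratio of FPKM + 1 in the heterozygote to FPKM + 1 in the wild type. A gene was counted as higher or lower where that ratio was at least 2-fold.

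The study removed Dspp from every cell of mice on the C57BL/6 background and took the condyle at 4 months of age with its cartilage and underlying bone left joined. WT carried both intact copies of Dspp, Dspp+/- carried an intact and a deleted copy, and Dspp-/- had both copies deleted. Tissue of 3 animals was pooled for WT and likewise for Dspp+/-. The number behind Dspp-/- is not given in the sources used here. The labels speak of triplicates, but the table holds a single value per gene and genotype, so each genotype was treated as 1 library. No value of the deleted gene was used, so the labels were not checked against it. No difference below has a replicate check and no test between genotypes was possible. Dspp-/- is given as context only, and since it is set against the same WT library as Dspp+/-, the pair of differences is not independent.

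Dspp encodes dentin sialophosphoprotein, a secreted matrix protein of dentin and bone that is cut into dentin sialoprotein and dentin phosphoprotein. The mandibular condyle carries a layer of fibrous and hyaline-like cartilage over subchondral bone, and the spaces of that bone hold marrow in which red cells, neutrophils, platelets and B cells are made. Chewing muscle inserts at the neck of the condyle, so a dissected piece can hold bone, cartilage, marrow, muscle, vessel and fat cells side by side. In such a bulk sample, fewer cells of a type and less RNA per cell cannot be told apart.

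The depth inferred from the FPKM values was 20241585 fragments for the WT library and 23613574 for the Dspp+/- library, so depth was similar on both sides. The precision of a single gene depends on its own fragments in each library. Each fold below is the ratio of FPKM, and the interval in brackets after a fold is a 95% interval from the fragment counts of the 2 libraries, by the Clopper-Pearson method. Fragments made by PCR are not independent molecules, and the intervals cover counting error alone, not the difference between animals or pools. The libraries differed in sex markers. Xist, the RNA that silences an X chromosome in females, stood at 0.00551 FPKM in WT against 28.5 in Dspp+/- and 26.5 in Dspp-/-. The summed fragments of 4 Y-linked genes in Dspp+/- came to 52.2% of WT after scaling (49.7 to 54.8%), and WT had next to no Xist. Sex and genotype therefore cannot be told apart for any gene here. Genes of the mitochondrial genome took 25.02% of all FPKM in WT and 36.9% in Dspp+/-, and Rn18s, a ribosomal RNA, stood at 95.1 and 844 FPKM.

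Among the 13026 genes, 636 lay 2-fold or more above WT in Dspp+/- (4.88%) and 373 lay as far below it (2.86%). By any ratio, 7337 genes were above WT (56.3%) and 5688 below it (43.7%), and the counts of list members above or below WT given further on are to be read beside these shares. The bulk of the genes stood close to WT, with 79.5% within 1.5-fold and a median log2 ratio of 0.058. The higher side reached further: 124 genes were at least 4-fold higher and 24 at least 4-fold lower, and past 8-fold the counts were 35 and 4. In WT, the genes on the higher side had a median of 1.34 FPKM and those on the lower side one of 17.3, against 5.53 over all genes compared. In Dspp+/- their medians were 6.25 and 5.98 FPKM. The WT value is part of the ratio that set the sides, so the contrast in WT follows in part from the rule. The 636 higher genes went from 2.44% of the summed FPKM in WT to 6.52% in Dspp+/-, and the 373 lower genes from 12.9% to 3.47%. For 260 of the 636 higher genes WT was under 1 FPKM, so these entered the comparison through a library in which they were abundant and had to differ. Such genes are part of the counts of higher list members given further on. Of all calls, 63.0% were on the higher side, and this share was 45.6% when the libraries were rescaled without hemoglobin, immunoglobulin and muscle genes and 42.7% when both were brought to equal summed FPKM (TPM). Those scalings moved the median of all genes by -0.15 and -0.18.

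**Figure D1:**
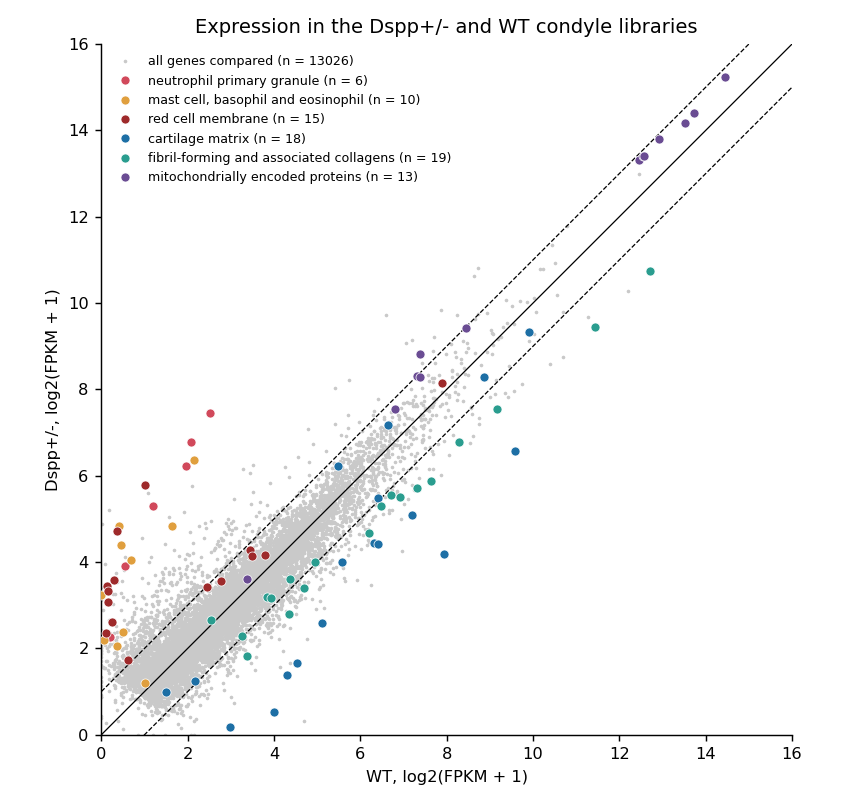
Level of each of the 13026 genes in WT (x axis) and Dspp+/- (y axis), both as log2(FPKM + 1), with all genes in grey and 6 gene groups in colour. The solid line marks equal levels and the dashed lines a 2-fold difference; neutrophil granule, eosinophil and red cell membrane genes lie mostly above the upper dashed line or toward it, 11 of the 18 cartilage and 13 of the 19 fibril collagen genes lie below the lower one, and the 13 mitochondrially encoded genes, most of them at the right, lie above equality, with a median log2 ratio of 0.85.

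Immunoglobulin segments, whose single values are given further on, and unnamed genes were left out of the ranking by log2 ratio. Segments reached beyond both ends of it. Among the other genes, the first 15 above WT included Elane, Xist, Slc4a1, Mpo, Ear1, Prtn3, Prg2, Ctsg, Ear6, Hemgn, Ighg2b, Car1, Ctse and Ly6c2, from 4.93 down to 3.47. Of these, Elane, Mpo, Prtn3 and Ctsg make proteins of neutrophil granules, Ear1, Prg2 and Ear6 proteins of eosinophil granules, and Slc4a1, Hemgn and Car1 are genes of the red cell lineage. The first 15 below WT included Col10a1, Col9a1, Col2a1, Col9a3, Col9a2, Cnmd, Myh4, Dbp, Snorc, Cthrc1, Cpz, Mir6358, Col11a2 and Smpd3, from -3.76 to -2.10. Col10a1 to Cnmd are cartilage genes, whereas Myh4 encodes a fast myosin and Dbp a clock-controlled transcription factor. In the coordinates of the table, whose genome build is not named, Elane lies at chr10:79722081-79724049 and Col10a1 at chr10:34265977-34273081.

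Just inside the 2-fold line on the higher side stood Slc25a22, Kif21b and Zyx and just outside it Stab2 and Hmox1. On the lower side Avpi1, Crispld1 and Rab11fip4 stood just inside and Fscn1, Slc25a1 and Kdelr2 just outside. Their log2 ratios ran from 0.9985 to 1.0010 on the higher side and from -1.0036 to -0.9984 on the lower.

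Genes were read in 88 lists by function or cell type. Members named below that were under 2-fold and not at an end of their list were picked for contrast after their values were seen, as were Rn18s, Ucp3 and Angptl4, which are in no list. A list with at least 5 compared genes was called where its median passed 1.5-fold, and by that rule 20 lists were higher, 8 were lower and 51 were neither, with 9 too small. The lists with the highest medians were the neutrophil primary granule at 4.18, mast cells, basophils and eosinophils at 3.21 and the red cell membrane at 2.26. The place of the last of these depends on the settings, since the red cell membrane median was 4.21 with a pseudocount of 0.1, 0.85 with one of 5 and 0.98 where genes averaging under 5 FPKM were left out. The lists with the lowest medians were cartilage matrix at -1.94, the bone matrix and osteoblast genes at -1.56 and the fibril-forming collagens at -1.42. Over 11 alternative settings, 17 of the 28 calls held in all. With a pseudocount of 5 the medians of mitosis (0.53), replication (0.52), Wnt (-0.45), hedgehog and PTHrP (-0.52), matrix proteinases (-0.46), slow fibre, calcium handling and oxidative muscle genes and the kappa and heavy chain variable segments came under 1.5-fold. The 3 muscle lists and fatty acid oxidation (0.51) also came under it with TPM. Lists of vessels, nerve, tissue macrophages, glycolysis and immediate early genes lay between, near the median of all genes.

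**Figure D2:**
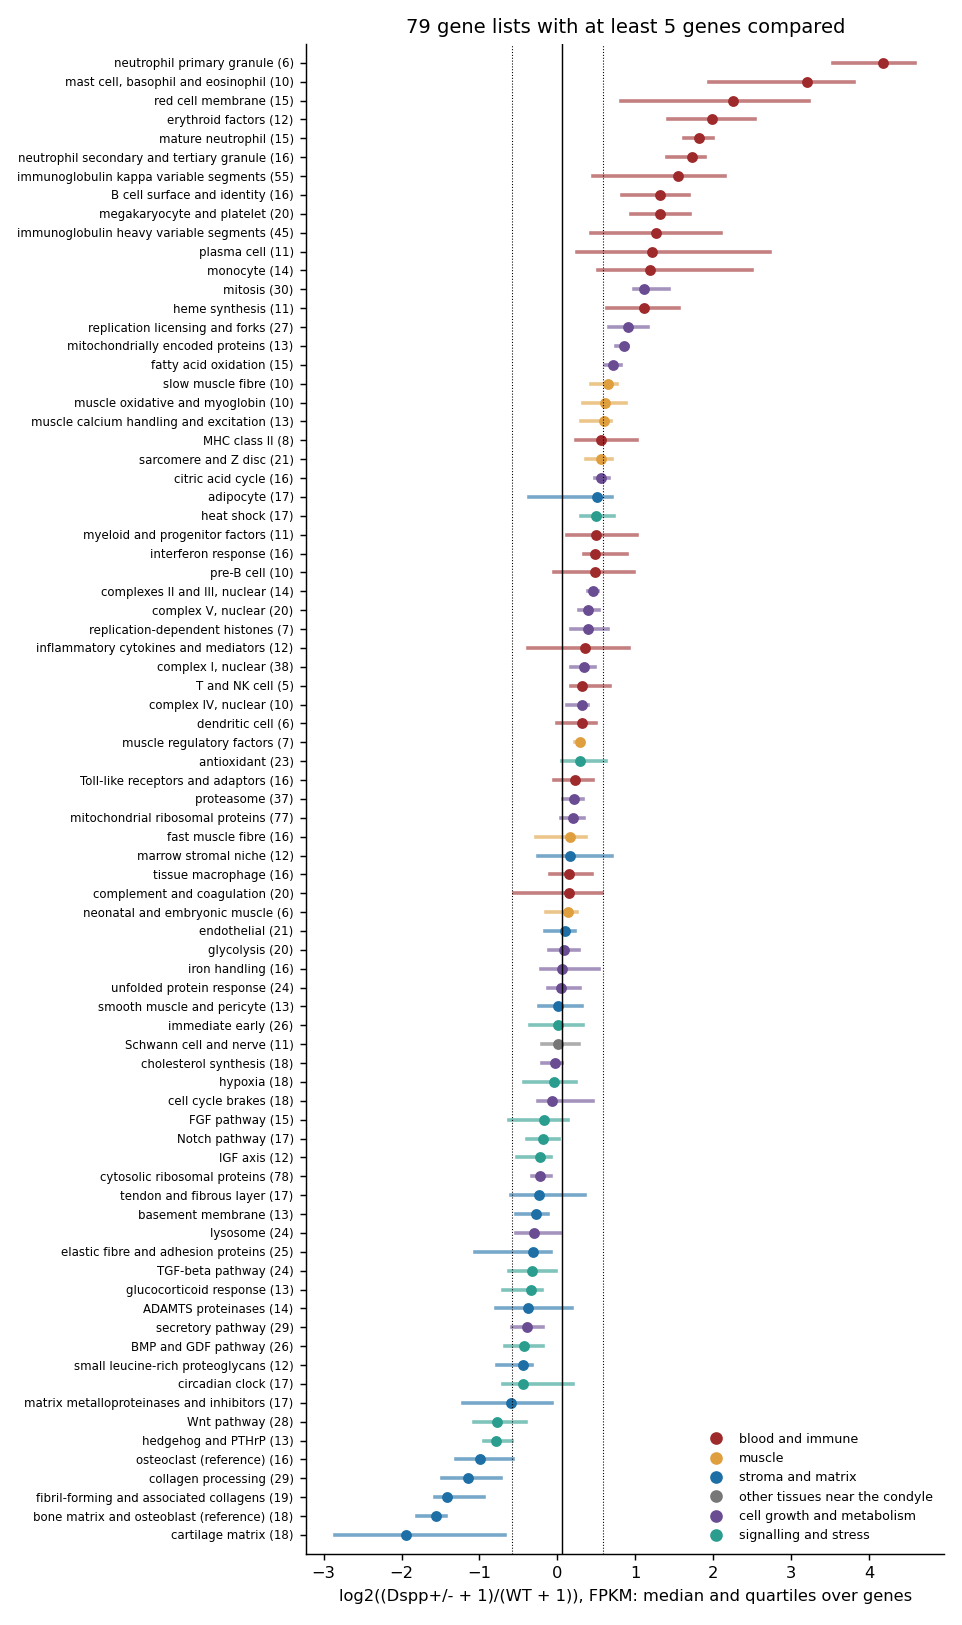
Median log2 ratio of Dspp+/- to WT (x axis) for the 79 lists with at least 5 compared genes, sorted, with a bar from the lower to the upper quartile of the members and colours for families of lists. The solid line is the median of all genes compared, 0.058, and the dotted lines mark 1.5-fold; blood lists fill the right end, up to 4.18, and matrix lists the left end, down to -1.94.

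Neutrophils build their granules in order as they ripen in the marrow: primary granules in promyelocytes, secondary and tertiary granules in myelocytes and later stages, and receptors for bacterial and chemokine signals in the mature cell. The 6 primary granule genes were all at least 2-fold higher in Dspp+/-. Among them, Ms4a3 and Prss57 were under 1 FPKM in WT and passed the filter only through the mutant libraries. Elane, neutrophil elastase, stood at 4.77, 175 and 78.3 FPKM in WT, Dspp+/- and Dspp-/-, 36.6-fold above WT (29.9 to 45.4). Mpo, myeloperoxidase, stood at 3.23 FPKM in WT against 109 in Dspp+/- and 38.3 in Dspp-/-, 33.8-fold above WT (29.6 to 38.8). Prtn3, the serine proteinase that neighbours Elane in function, stood at 2.91, 73.9 and 26.4 FPKM in WT, Dspp+/- and Dspp-/-. In each of the 3, Dspp+/- was above Dspp-/-, and WT was lowest. Ctsg, cathepsin G, stood at 1.29 FPKM in WT against 38.3 in Dspp+/- and 10.7 in Dspp-/-, or 29.7-fold above WT (20.2 to 45.2). Ms4a3, a membrane protein of granulocyte and monocyte progenitors, stood at 0.472, 14.03 and 5.87 FPKM in WT, Dspp+/- and Dspp-/-. The least abundant of the list was Prss57, another granule serine proteinase, at 0.156 FPKM in WT against 3.77 in Dspp+/- and 1.39 in Dspp-/-. It shares 40.7% of its exon length with a gene on the opposite strand, and Mpo a smaller part, and such reads could be split between the genes where strand was not counted.

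The 16 secondary and tertiary granule genes had a lower median, 1.72, and 15 were at least 2-fold higher. Ngp, the neutrophilic granule protein, stood at 145, 562 and 744 FPKM in WT, Dspp+/- and Dspp-/-, and Ltf, the iron-binding lactotransferrin, at 28.8 FPKM in WT against 105 in Dspp+/- and 135 in Dspp-/-. Camp, the precursor of cathelicidin, stood at 41.3, 147 and 163 FPKM in WT, Dspp+/- and Dspp-/-, 3.55-fold above WT (3.25 to 3.88). For these genes the order of the libraries was not that of the primary granule, since Dspp-/- stood above Dspp+/-. Lcn2, which binds bacterial siderophores, stood at 18.02 FPKM in WT against 72.1 in Dspp+/- and 97.3 in Dspp-/- and Mmp8, the neutrophil collagenase, at 10.04, 39.8 and 67.6 FPKM in WT, Dspp+/- and Dspp-/-. Cyba, a subunit of the phagocyte oxidase that many cells express, was the member that stayed under 2-fold, at 27.7 FPKM in WT against 39.4 in Dspp+/- and 35.03 in Dspp-/-.

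Genes of the mature neutrophil were at least 2-fold higher in 15 of 15 compared genes, with a median of 1.81. S100a8 and S100a9 encode the subunits of calprotectin. S100a8 stood at 133, 542 and 956 FPKM in WT, Dspp+/- and Dspp-/- and S100a9 at 232 FPKM in WT against 916 in Dspp+/- and 1339 in Dspp-/-, 3.94-fold above WT (3.77 to 4.12). Csf3r, the receptor of granulocyte colony-stimulating factor, stood at 4.24, 28.8 and 22.5 FPKM in WT, Dspp+/- and Dspp-/-, and Cxcr2, a chemokine receptor of circulating neutrophils, at 1.65 FPKM in WT against 12.6 in Dspp+/- and 13.6 in Dspp-/-. The surface antigen gene Ly6g stood at 2.99, 11.6 and 17.5 FPKM in WT, Dspp+/- and Dspp-/-. The median log2 ratio of Dspp-/- to WT was 2.58 for the primary granule and 2.21 for the mature neutrophil, against 4.18 and 1.81 for Dspp+/-. Among the factors that drive myeloid differentiation, Cebpe, needed for secondary granules, stood at 1.63 FPKM in WT against 10.7 in Dspp+/- and 7.68 in Dspp-/-, while Cebpa, which acts earlier, stood at 13.7, 15.8 and 16.1 FPKM in WT, Dspp+/- and Dspp-/- and Spi1, the gene of PU.1, at 16.3 FPKM in WT against 17.8 in Dspp+/- and 15.7 in Dspp-/-. The list of myeloid and progenitor factors had 3 of 11 compared genes at least 2-fold higher and a median of 0.50.

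Eosinophils, basophils and mast cells carry granules loaded with basic proteins, proteinases and amines. The table held 18 of the listed genes, 10 of them were compared, and 9 of these were at least 2-fold higher. Epx, Ear1, Ear6, Mcpt8, Cpa3 and Hdc were under 1 FPKM in WT and passed the filter only through the mutant libraries. The count of higher genes was therefore partly set by the filter. Prg2, the eosinophil major basic protein, stood at 3.42, 81.5 and 65.3 FPKM in WT, Dspp+/- and Dspp-/-, 23.8-fold above WT (18.3 to 31.5). Epx, eosinophil peroxidase, stood at 0.614 FPKM in WT against 15.6 in Dspp+/- and 16.1 in Dspp-/-, 25.5-fold above WT (18.1 to 36.98). Ear1, Ear2 and Ear6 encode eosinophil ribonucleases. In Ear1 26.9% and in Ear2 14.5% of the 100-base stretches occur in other genes, so the single values of Ear1 and Ear2 are uncertain. For Ear6 the share was 0%. Ear1 stood at 0.338, 27.7 and 30.2 FPKM in WT, Dspp+/- and Dspp-/- and Ear6 at 0.366 FPKM in WT against 20.03 in Dspp+/- and 18.1 in Dspp-/-. Mcpt8, a proteinase of basophils, had no fragment in WT, 8.36 FPKM in Dspp+/- and 3.87 in Dspp-/-, and was at least 56.3-fold higher than a floor of 3 fragments in WT. Cpa3, the mast cell carboxypeptidase, stood at 0.293, 3.18 and 1.27 FPKM in WT, Dspp+/- and Dspp-/-, and Hdc, which makes histamine, at 0.410 FPKM in WT against 4.20 in Dspp+/- and 3.43 in Dspp-/-. Ccr3, the eotaxin receptor, was the compared member under 2-fold, at 1.01, 1.29 and 2.22 FPKM in WT, Dspp+/- and Dspp-/-.

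Red cell genes were higher at each step from the factors that start the lineage to the proteins of the finished membrane. Gata1, the factor that directs erythroid and megakaryocytic genes, stood at 0.142 FPKM in WT against 4.01 in Dspp+/- and 2.36 in Dspp-/-, 28.3-fold above WT (13.5 to 71.1). Klf1, the erythroid Krueppel-like factor, stood at 0.290, 10.6 and 6.30 FPKM in WT, Dspp+/- and Dspp-/-, and Epor, the erythropoietin receptor, at 0.695 FPKM in WT against 5.92 in Dspp+/- and 3.48 in Dspp-/-. Hemgn, a nuclear protein of erythroid cells, rested on 3 fragments in WT and 857 in Dspp+/- and gave a ratio of 245 (83.5 to 1189.8). Gata1, Klf1, Epor and Hemgn were under 1 FPKM in WT and passed the filter only through the mutant libraries. Of the 12 compared erythroid factors 11 were at least 2-fold higher, a count partly set by the filter. The exception was Tfrc, the transferrin receptor that dividing cells of many types carry, at 48.5, 41.9 and 64.99 FPKM in WT, Dspp+/- and Dspp-/-.

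Heme synthesis genes were above WT in all 11 compared, 6 of them by at least 2-fold. Alas2, the erythroid form of the rate-limiting enzyme, stood at 7.48 FPKM in WT against 43.2 in Dspp+/- and 41.3 in Dspp-/-, 5.78-fold above WT (5.17 to 6.47). Slc25a37, mitoferrin, which carries iron into mitochondria, stood at 6.63, 31.2 and 26.4 FPKM in WT, Dspp+/- and Dspp-/-. Nearest to WT in the list stood Ppox, the enzyme of the step before the last, at 5.10 FPKM in WT against 6.72 in Dspp+/- and 5.04 in Dspp-/-. Fech, the last enzyme, stood at 7.05, 11.9 and 12.04 FPKM in WT, Dspp+/- and Dspp-/-.

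Of the 15 membrane genes 9 were at least 2-fold higher. Rhd and Kel were under 1 FPKM in WT and passed the filter only through the mutant libraries. Slc4a1, the band 3 anion exchanger, stood at 1.01 FPKM in WT against 54.2 in Dspp+/- and 40.5 in Dspp-/-, 53.7-fold above WT (44.04 to 66.1). Rhd, an Rh blood group protein, stood at 0.0930, 9.91 and 6.99 FPKM in WT, Dspp+/- and Dspp-/-. The members nearest to WT were Aqp1 and Tmod1. Aqp1, a water channel of vessels and red cells, stood at 235 FPKM in WT against 284 in Dspp+/- and 261 in Dspp-/- and Tmod1, tropomodulin, at 12.8, 17 and 13.5 FPKM in WT, Dspp+/- and Dspp-/-. The summed FPKM of the 4 globin genes was 0.290% in WT and 1.01% in Dspp+/-. The globin genes share 54.1 to 74.4% of their 100-base stretches with other genes and are given as a sum for that reason. Car2, a carbonic anhydrase of red cells and osteoclasts alike, stood at 9.83 FPKM in WT against 65.4 in Dspp+/- and 49.4 in Dspp-/-. Of the 16 compared genes of the osteoclast list, 15 were below WT and 1 was at least 2-fold higher, with a log2 ratio of 2.62.

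The letters AGATAA, the core that GATA factors bind, were searched on both strands in the 250 bases before each start in the RefSeq promoters of GRCm38.p6. They were found in 7 of the 34 promoters (20.6%) that matched 28 of the 39 genes of the heme, membrane and erythroid factor lists, and in 9.99% of all 32851 promoters. The letters CCACACCC, of the kind that Klf1 binds, were in none of the 34 and in 3.20% of all, and each motif was searched on its own, so that matches of different motifs can share bases. A match is a description of the sequence and not a site shown to be bound. The 4 stretches shown are those with the match nearest to the start among genes named here, with AGATAA or its complement TTATCT in capitals. They lie at chr4:134864466-134864525 on the plus strand for Rhd, chr9:21963598-21963657 on the minus strand for Epor, chr6:41704349-41704408 on the minus strand for Kel, which encodes a blood group protein, and chrX:150547304-150547363 on the plus strand for Alas2.
Rhd: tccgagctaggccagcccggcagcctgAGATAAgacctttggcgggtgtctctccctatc
Epor: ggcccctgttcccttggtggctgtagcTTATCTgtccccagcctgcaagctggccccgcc
Kel: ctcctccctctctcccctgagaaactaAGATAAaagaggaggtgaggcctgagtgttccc
Alas2: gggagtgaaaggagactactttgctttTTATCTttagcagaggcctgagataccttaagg
Each of these 4 genes was at least 5-fold above WT, with Kel at 0.107, 7.42 and 6.74 FPKM in WT, Dspp+/- and Dspp-/- and the other 3 as given above. Rhd, Epor and Kel passed the filter only through the mutant libraries, so their folds were partly set by it. Klf1, also above WT, had no AGATAA in the bases searched. Whether the letters go with the size of the fold was not tested.

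Megakaryocyte and platelet genes were at least 2-fold higher in 13 of 20 compared genes, with a median of 1.32. Ppbp, the platelet basic protein, stood at 10.4 FPKM in WT against 75.6 in Dspp+/- and 86.7 in Dspp-/-, 7.24-fold above WT (6.31 to 8.34). Itga2b, the alpha subunit of the fibrinogen receptor, stood at 1.08, 5.62 and 4.42 FPKM in WT, Dspp+/- and Dspp-/- and Gp9, a subunit of the receptor for von Willebrand factor, at 1.07 FPKM in WT against 7.16 in Dspp+/- and 7.04 in Dspp-/-. Among the members nearer to WT were Vwf at 4.64, 7.41 and 6.36 FPKM in WT, Dspp+/- and Dspp-/-, Thbs1 at 38.4 FPKM in WT against 48.9 in Dspp+/- and 49.3 in Dspp-/- and the thrombin receptor F2r at 16.3, 12.1 and 16.4 FPKM in WT, Dspp+/- and Dspp-/-.

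Of the 14 compared monocyte genes 8 were at least 2-fold higher. Ly6c2, an antigen of inflammatory monocytes, stood at 1.97 FPKM in WT against 31.9 in Dspp+/- and 22.7 in Dspp-/-, 16.2-fold above WT (13.4 to 19.9). Ccr2, the receptor that draws monocytes out of marrow, stood at 1.54, 10.1 and 7.59 FPKM in WT, Dspp+/- and Dspp-/-. Cx3cr1, carried by patrolling monocytes and tissue macrophages, stood at 4.36 FPKM in WT against 4.11 in Dspp+/- and 4.39 in Dspp-/-, and Cd14, a co-receptor for bacterial lipopolysaccharide, at 8.02, 7.09 and 7.34 FPKM in WT, Dspp+/- and Dspp-/-. Tissue macrophage genes stood at a median of 0.15, a sign that turned under some scalings (-0.057 to 0.21 over the alternatives), and 1 of 16 was at least 2-fold higher. Csf1r, the receptor that macrophages and osteoclasts depend on, stood at 43.2 FPKM in WT against 25.1 in Dspp+/- and 33.2 in Dspp-/-, and Adgre1, the F4/80 antigen, at 5.90, 8.30 and 7.83 FPKM in WT, Dspp+/- and Dspp-/-.

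**Figure D3:**
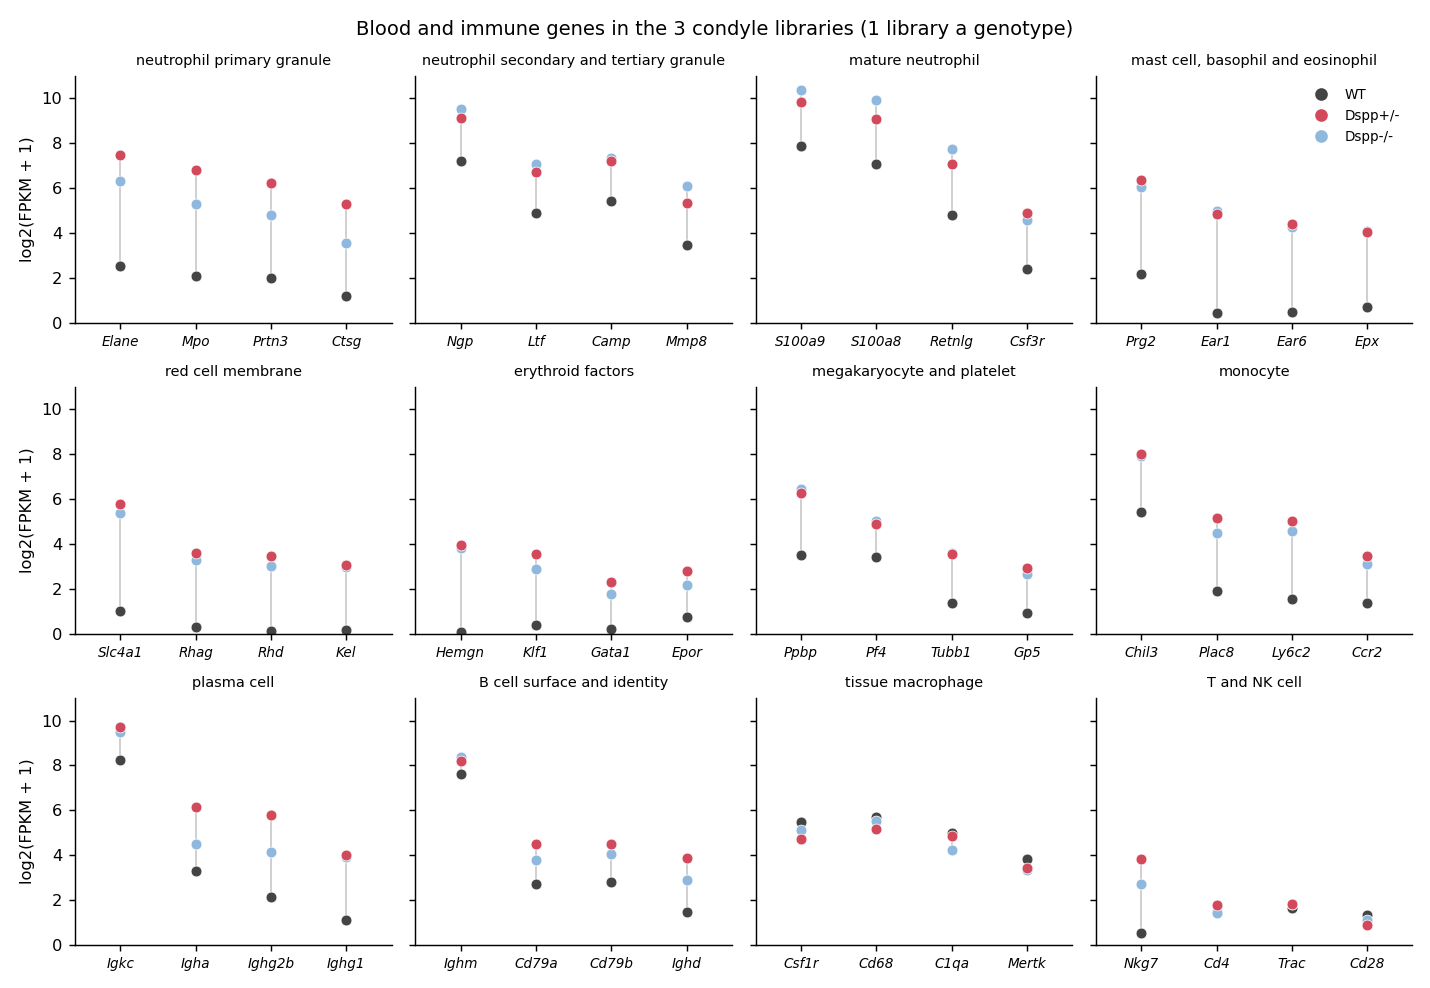
Level in log2(FPKM + 1) (y axis) of 4 genes in each of 12 groups of blood and immune cells, with WT in grey, Dspp+/- in red and Dspp-/- in blue and 1 library each. In the neutrophil primary granule panel Dspp+/- stands above Dspp-/- and WT lowest, with Elane at 4.77, 175 and 78.3 FPKM in WT, Dspp+/- and Dspp-/-.

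B cell genes were at least 2-fold higher in 11 of 16 compared genes, with a median of 1.32. Cd79a, a signalling chain of the B cell receptor, stood at 5.49 FPKM in WT against 21.6 in Dspp+/- and 12.9 in Dspp-/-, 3.93-fold above WT (3.31 to 4.68). Ighd, the heavy chain of IgD on mature naive B cells, stood at 1.77, 13.6 and 6.43 FPKM in WT, Dspp+/- and Dspp-/-, whereas Ighm, the heavy chain of IgM, stood at 193 FPKM in WT against 292 in Dspp+/- and 332 in Dspp-/-, or 1.51-fold above WT (1.47 to 1.56). The list of earlier B cell stages had a median of 0.48 and 3 of 10 compared genes at least 2-fold higher. Pax5, which fixes B cell identity, stood at 1.38, 4.64 and 4.57 FPKM in WT, Dspp+/- and Dspp-/-, while Vpreb1, a part of the surrogate light chain of pre-B cells, stood at 1.40 FPKM in WT against 0.565 in Dspp+/- and 1.46 in Dspp-/- and Dntt, the template-free polymerase of V(D)J joining, at 0.819, 0.776 and 2.12 FPKM in WT, Dspp+/- and Dspp-/-.

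Constant region genes of secreted antibodies were also higher. Ighg2b, a heavy chain of IgG, stood at 3.32 FPKM in WT against 53.6 in Dspp+/- and 16.7 in Dspp-/-, 16.1-fold above WT (13.9 to 18.9), and Igha, the heavy chain of IgA, at 8.70, 70.8 and 21.8 FPKM in WT, Dspp+/- and Dspp-/-, 8.14-fold above WT (7.398 to 8.97). Ighg3 stood at 3.54 FPKM in WT against 5.06 in Dspp+/- and 7.39 in Dspp-/-, closer to WT. Of the summed FPKM of the 5 class-switched heavy chains, Ighg2b made up 16.2% in WT against 31.1% in Dspp+/- and 23.2% in Dspp-/-, and Ighg3 made up 17.2%, 2.94% and 10.3%. Igkc, the kappa constant region, stood at 301, 841 and 721 FPKM in WT, Dspp+/- and Dspp-/-. At the other end of the plasma cell list Xbp1, a factor of secretory cells, stood at 39.7 FPKM in WT against 42.2 in Dspp+/- and 40.99 in Dspp-/- and Sdc1, syndecan-1, at 23.6, 7.79 and 12.47 FPKM in WT, Dspp+/- and Dspp-/-.

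Single variable segments differed both ways and by large factors between the libraries. Of 55 compared kappa segments 36 were at least 2-fold higher and 6 at least 2-fold lower, with log2 ratios from -4.38 to 5.02. Of 45 compared heavy chain segments 26 were at least 2-fold higher and 5 lower, from -2.58 to 3.89. WT had at most 3 fragments for 21 of the kappa and 23 of the heavy chain segments, so many of these values rest on few fragments. The segments given next were chosen after their values were seen. Igkv1-110 stood at 1.11 FPKM in WT against 47.6 in Dspp+/- and 11.1 in Dspp-/-, and Igkv12-41 went the other way at 24.9, 0.244 and 0.389 FPKM in WT, Dspp+/- and Dspp-/-. Among heavy chain segments Ighv1-7 stood at 0.382 FPKM in WT against 19.4 in Dspp+/- and 1.85 in Dspp-/- and Ighv2-9-1 at 16.6, 1.95 and 1.70 FPKM in WT, Dspp+/- and Dspp-/-. In all, 69 of the 636 higher genes were immunoglobulin genes, 64 of them variable segments.

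T and NK cell genes were scarce, and 5 of 21 in the table were compared. Nkg7, a granule membrane protein of cytotoxic cells, stood at 0.432 FPKM in WT against 13.1 in Dspp+/- and 5.46 in Dspp-/-, but Cd4, a T helper co-receptor, stood at 1.78, 2.45 and 1.69 FPKM in WT, Dspp+/- and Dspp-/- and Trac, the constant region of the T cell receptor alpha chain, at 2.17 FPKM in WT against 2.58 in Dspp+/- and 2.499 in Dspp-/-. MHC class II genes, which present antigen, had a median of 0.56 with 2 of 8 at least 2-fold higher. The chains themselves stood near WT, with H2-Ab1 at 19.9, 19.5 and 13.8 FPKM in WT, Dspp+/- and Dspp-/-, while H2-DMb2, a chaperone of peptide loading, stood at 0.707 FPKM in WT against 4.10 in Dspp+/- and 1.80 in Dspp-/-. Of the 16 compared interferon response genes 15 were above WT and 4 by at least 2-fold. Rsad2, viperin, stood at 4.10, 10.8 and 11.5 FPKM in WT, Dspp+/- and Dspp-/-.

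Inflammatory cytokines were scarce, with 12 of 26 genes in the table compared. Il1b, made by neutrophils and monocytes among others, stood at 0.259 FPKM in WT against 3.44 in Dspp+/- and 1.81 in Dspp-/-, 13.3-fold above WT (7.03 to 28.3), and its natural antagonist Il1rn at 0.2499, 1.62 and 1.13 FPKM in WT, Dspp+/- and Dspp-/-. Csf1, the macrophage growth factor, stood at 14.2 FPKM in WT against 10.5 in Dspp+/- and 10.4 in Dspp-/-, and Tgfb1 at 34.97, 24.2 and 22.5 FPKM in WT, Dspp+/- and Dspp-/-. Among Toll-like receptors and their adaptors 2 of 16 were at least 2-fold higher, Tlr13 at 1.78 FPKM in WT against 5.24 in Dspp+/- and 6.72 in Dspp-/- and Tlr8 at 1.03, 3.08 and 2.74 FPKM in WT, Dspp+/- and Dspp-/-, both sensors of RNA. The study stained the proteins of Il6, Mmp2, Fn1 and Tlr4 in condylar cartilage of older mice and reported each as increased in Dspp+/-. The values here are RNA of the condyle with its bone at 4 months, so measure, tissue and age differ. Among these genes, Il6 was at or under 3 fragments in each library. Tlr4, the lipopolysaccharide receptor, stood at 6.53 FPKM in WT against 6.33 in Dspp+/- and 8.91 in Dspp-/-, 0.970-fold of WT with an interval that spans equality (0.878 to 1.07). Mmp2, gelatinase A, stood at 381, 171 and 259 FPKM in WT, Dspp+/- and Dspp-/-, and Fn1, fibronectin, at 528 FPKM in WT against 449.8 in Dspp+/- and 399.7 in Dspp-/-, 0.852-fold of WT (0.846 to 0.859). Complement and clotting genes spread widely about a median of 0.15, whose sign turned under some scalings. C3, the central complement component, stood at 7.24, 30.1 and 28.3 FPKM in WT, Dspp+/- and Dspp-/-, 4.16-fold above WT (3.85 to 4.51).

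Genes of dividing cells were higher in Dspp+/-, as were the marrow genes above, and which cells divided was not tested. The mitosis list had 22 of 30 compared genes at least 2-fold higher, none lower than WT, and a median of 1.11. Mki67, the proliferation antigen, stood at 4.34 FPKM in WT against 26.7 in Dspp+/- and 30.5 in Dspp-/-, 6.16-fold above WT (5.74 to 6.62), and Top2a, the topoisomerase of condensing chromosomes, at 2.92, 13.2 and 13.8 FPKM in WT, Dspp+/- and Dspp-/-, 4.53-fold above WT (4.13 to 4.98). Cyclin genes stood above WT by smaller ratios, with Ccna2 at 2.60 FPKM in WT against 9.03 in Dspp+/- and 9.81 in Dspp-/- and Ccnb2 at 4.03, 9.68 and 12.1 FPKM in WT, Dspp+/- and Dspp-/-. The list for replication licensing and forks had 27 of 27 compared genes above WT, 10 of them by at least 2-fold. Rrm2, the regulated subunit of ribonucleotide reductase, stood at 2.82 FPKM in WT against 15.9 in Dspp+/- and 16.3 in Dspp-/-, Mcm5, a subunit of the replicative helicase, at 2.56, 11.1 and 7.00 FPKM in WT, Dspp+/- and Dspp-/-, and Pcna, the sliding clamp, at 14.9 FPKM in WT against 29.6 in Dspp+/- and 26.8 in Dspp-/-. Genes that hold the cycle back had a median of -0.073, and Cdkn2a, which encodes p16 and p19Arf, was the single one past 2-fold and lower, at 3.84, 1.19 and 1.76 FPKM in WT, Dspp+/- and Dspp-/-.

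The letters CCAAT, bound by the factor NF-Y, were found on either strand in 81.5% of the 27 promoters of the mitosis list, from 26 of its 32 genes, in 59.4% of the 32 promoters of the replication list and in 33.8% of all promoters. The letters TTTGAA, the core of the cell cycle homology region, were found in 33.3% of the mitosis promoters, in 4 of the 32 replication promoters and in 15.99% of all. GGCGGGAA, of the kind that E2F factors bind, was in 9.38% of the replication promoters, in none of the 27 mitosis promoters and in 1.86% of all. CCAAT was also in 44.1% of the promoters of the red cell lists. Stretches are shown for 4 mitosis genes whose values are given here, at chr7:122159375-122159434 on the plus strand for Plk1, chr9:70421555-70421614 on the minus strand for Ccnb2, chr2:172370571-172370630 on the minus strand for Aurka and chr10:69352928-69352987 on the minus strand for Cdk1. The copy of CCAAT, or of its complement ATTGG, nearest to the start is in capitals.
Plk1: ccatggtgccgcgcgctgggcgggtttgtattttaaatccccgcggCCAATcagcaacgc
Ccnb2: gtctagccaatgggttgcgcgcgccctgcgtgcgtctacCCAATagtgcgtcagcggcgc
Aurka: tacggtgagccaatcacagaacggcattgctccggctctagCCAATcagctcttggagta
Cdk1: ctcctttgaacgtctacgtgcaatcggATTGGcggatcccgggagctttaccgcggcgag
Plk1 and Aurka, kinases of the spindle, stood at 1.75 FPKM in WT against 5.95 in Dspp+/- and 3.86 in Dspp-/- and at 1.76, 4.77 and 4.28 FPKM in WT, Dspp+/- and Dspp-/-. Cdk1, the kinase that starts mitosis, stood at 1.24 FPKM in WT against 3.73 in Dspp+/- and 4.14 in Dspp-/-.

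On the lower side, cartilage matrix genes led. The table held 21 of the listed genes, 18 of them were compared, 11 of them at least 2-fold lower. Col2a1, the collagen of hyaline cartilage, stood at 761, 94.2 and 308 FPKM in WT, Dspp+/- and Dspp-/-, 0.124-fold of WT (0.122 to 0.126). Col10a1, which marks hypertrophic chondrocytes next to bone, stood at 246 FPKM in WT against 17.3 in Dspp+/- and 107 in Dspp-/-, 0.0702-fold of WT (0.0662 to 0.0743). The collagen IX genes, whose product coats type II fibrils, were lower still by ratio, with Col9a1 at 14.9, 0.443 and 7.39 FPKM in WT, Dspp+/- and Dspp-/-, 0.0297-fold of WT (0.0222 to 0.0391). In all of these, Dspp-/- lay between WT and Dspp+/-.

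Acan, aggrecan, stood at 84.1 FPKM in WT against 20.4 in Dspp+/- and 40.4 in Dspp-/- and Hapln1, its link protein, at 46.8, 14.99 and 36.2 FPKM in WT, Dspp+/- and Dspp-/-. Cnmd, chondromodulin, which keeps vessels out of cartilage, had 259 fragments in WT and 6 in Dspp+/-. At the upper end of the list, Prg4, lubricin, the lubricant of the articular surface, stood at 43.8 FPKM in WT against 73.4 in Dspp+/- and 57.2 in Dspp-/-, 1.68-fold above WT (1.61 to 1.74), and Cilp, the cartilage intermediate layer protein, at 99.1, 144 and 76.3 FPKM in WT, Dspp+/- and Dspp-/-. Comp and Chad, found in tendon and fibrocartilage as well, stood at 462 and 962 FPKM in WT and at 312 and 643 in Dspp+/-.

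Bone genes stood below WT in all 18 genes of the bone matrix and osteoblast list, 16 of them by at least 2-fold. Dmp1, Ibsp, Mepe and Spp1 encode acidic bone matrix proteins of the same gene family as Dspp. Ibsp, bone sialoprotein, stood at 1643 FPKM in WT against 433 in Dspp+/- and 685 in Dspp-/-, 0.263-fold of WT (0.259 to 0.267). Spp1, osteopontin, stood at 2474, 814 and 1661 FPKM in WT, Dspp+/- and Dspp-/-, 0.329-fold of WT (0.325 to 0.333). Its value is less certain than this interval, because 18.75% of its exon length overlaps another gene on the same strand. Mepe and Dmp1, which are made by osteocytes, stood at 0.290 and 0.370-fold of WT. The members nearest to WT were Sost, the Wnt inhibitor sclerostin of osteocytes, at 272 FPKM in WT against 167 in Dspp+/- and 111 in Dspp-/-, and Runx2, the factor that starts the osteoblast lineage, at 17.7, 9.90 and 13.8 FPKM in WT, Dspp+/- and Dspp-/-. The osteoclast list, for the cells that resorb bone, had a median of -0.99 with 8 of 16 genes at least 2-fold lower and 1 at least 2-fold higher. Its lowest members were Ctsk, cathepsin K, at 863 FPKM in WT against 279 in Dspp+/- and 481 in Dspp-/- and Acp5, the acid phosphatase TRAP, at 756, 248 and 399 FPKM in WT, Dspp+/- and Dspp-/-, whereas Nfatc1, the factor that directs osteoclast formation, stood at 24.5 FPKM in WT against 17.5 in Dspp+/- and 21.9 in Dspp-/-.

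Fibril-forming and associated collagens held 3.64% of the summed FPKM in WT and 0.847% in Dspp+/-. Of 19 compared genes 13 were at least 2-fold lower. Of all genes compared, the 3 with the largest difference in FPKM below WT were Col1a1 and Col1a2, the chains of type I collagen, and Sparc, a collagen-binding protein of bone. Col1a1 stood at 6675, 1719 and 3609.7 FPKM in WT, Dspp+/- and Dspp-/-, 0.257-fold of WT (0.256 to 0.259). Col3a1 of soft connective tissue stood at 576 FPKM in WT against 185 in Dspp+/- and 372 in Dspp-/-, Col5a2, which sets fibril width, at 197, 58.2 and 108 FPKM in WT, Dspp+/- and Dspp-/-, and Col6a1 of the pericellular matrix at 312 FPKM in WT against 108 in Dspp+/- and 182 in Dspp-/-. Col14a1, of tendon and skin, was the member above WT, at 4.86, 5.27 and 5.29 FPKM in WT, Dspp+/- and Dspp-/- with an interval that spans equality (0.979 to 1.20).

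The enzymes and chaperones that make collagen were lower with it, 28 of 29 compared genes below WT and 16 by at least 2-fold. Serpinh1, the collagen chaperone HSP47, stood at 428 FPKM in WT against 160.3 in Dspp+/- and 196 in Dspp-/-, 0.375-fold of WT (0.366 to 0.384). Fkbp10, a prolyl isomerase of the procollagen complex, stood at 72.8, 20.9 and 35.6 FPKM in WT, Dspp+/- and Dspp-/-, and Lox, which cross-links fibrils outside the cell, at 129 FPKM in WT against 39.4 in Dspp+/- and 83.6 in Dspp-/-. Bmp1, the procollagen C-proteinase, stood at 45.7, 14.2 and 22.3 FPKM in WT, Dspp+/- and Dspp-/- and its enhancer Pcolce at 106 FPKM in WT against 35.7 in Dspp+/- and 51.6 in Dspp-/-. P4hb, which also serves other secreted proteins, was nearer to WT at 196, 133 and 135 FPKM in WT, Dspp+/- and Dspp-/-. The general secretory pathway stood at a median of -0.39 with 25 of 29 genes below WT but 1 at least 2-fold lower, the retrieval receptor Kdelr3 at 40.4 FPKM in WT against 12.2 in Dspp+/- and 21.5 in Dspp-/-. The unfolded protein response had a median of 0.050, a sign that turned under some scalings, with 1 of 24 genes at least 2-fold higher and 1 lower. The lower one, Creb3l1, an endoplasmic reticulum stress factor that drives collagen genes in bone, stood at 51.9, 17.1 and 21.4 FPKM in WT, Dspp+/- and Dspp-/-.

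Small leucine-rich proteoglycans, which bind collagen fibrils, were closer to WT, with a median of -0.44 and 2 of 12 at least 2-fold lower. Dcn, decorin, stood at 308 FPKM in WT against 238 in Dspp+/- and 295 in Dspp-/-, Bgn, biglycan, at 700.0, 373 and 537 FPKM in WT, Dspp+/- and Dspp-/-, and Lum, lumican, at 512 FPKM in WT against 224 in Dspp+/- and 478 in Dspp-/-. Basement membrane genes had a median of -0.28 and none past 2-fold of 13 compared. Elastic fibre and adhesion proteins had 7 of 25 at least 2-fold lower, among them Tnc, tenascin-C of loaded connective tissue, at 199.6, 94.8 and 120.2 FPKM in WT, Dspp+/- and Dspp-/-, while Fbln2, fibulin-2, stood at 20.1 FPKM in WT against 27.6 in Dspp+/- and 19.8 in Dspp-/-.

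Matrix proteinases and their inhibitors went in both directions. Of 17 compared genes 7 were at least 2-fold lower and 2 higher, and the 2 higher ones, Mmp8 and Mmp25, are neutrophil genes. Mmp9, gelatinase B, which neutrophils carry as well, was among the 7 lower genes. It is not in the granule lists above. Mmp13, the collagenase of hypertrophic cartilage and osteoblasts, stood at 649, 239.9 and 487 FPKM in WT, Dspp+/- and Dspp-/-, 0.370-fold of WT (0.363 to 0.377). Mmp14, a membrane-bound collagenase, stood at 114 FPKM in WT against 47.3 in Dspp+/- and 66.1 in Dspp-/-, Mmp3, stromelysin-1, at 15.9, 10.4 and 11.3 FPKM in WT, Dspp+/- and Dspp-/-, and Timp1, an inhibitor, at 57.4 FPKM in WT against 19.6 in Dspp+/- and 33.6 in Dspp-/-. Of the aggrecan-cutting proteinases, Adamts4 stood at 3.61, 1.17 and 2.31 FPKM in WT, Dspp+/- and Dspp-/- and Adamts5 at 8.18 FPKM in WT against 7.64 in Dspp+/- and 7.36 in Dspp-/-.

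**Figure D4:**
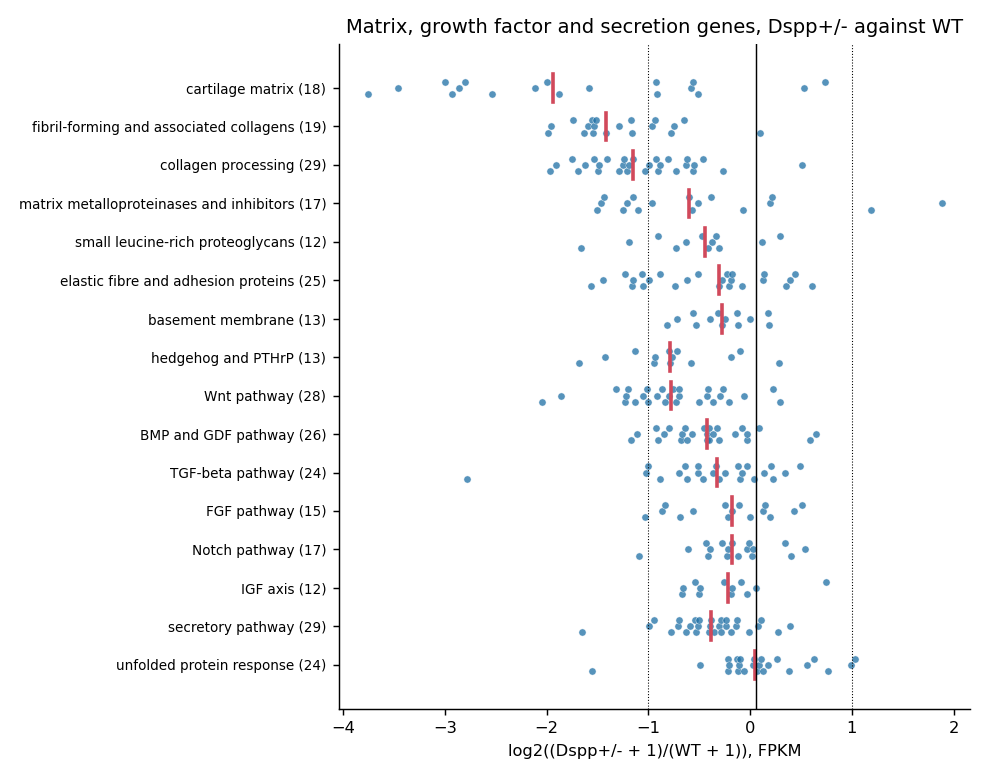
Log2 ratio of Dspp+/- to WT (x axis) of each compared gene, as a point, in 16 lists of matrix, signalling and secretion genes, with the list median as a red bar. The solid line is the median of all genes, 0.058, and the dotted lines mark 2-fold; cartilage matrix spreads from -3.76 for Col10a1 to 0.73 for Prg4, while the basement membrane genes all lie within 2-fold.

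Signalling genes of skeletal cells were lower by smaller ratios. The Wnt list, whose ligands act through Frizzled receptors and Lrp5 or Lrp6, had 10 of 28 compared genes at least 2-fold lower and a median of -0.78. Among ligands, Wnt10b stood at 9.89, 4.42 and 5.77 FPKM in WT, Dspp+/- and Dspp-/- and Wnt5b at 19.8 FPKM in WT against 8.09 in Dspp+/- and 8.31 in Dspp-/-. Among receptors, Lrp6 stood at 10.9, 10.4 and 10.8 FPKM in WT, Dspp+/- and Dspp-/- and Fzd1 at 17.9 FPKM in WT against 13.1 in Dspp+/- and 13.1 in Dspp-/-. Of the secreted inhibitors, Wif1 stood at 234, 63.5 and 126 FPKM in WT, Dspp+/- and Dspp-/-, Frzb, a soluble Frizzled-related protein of cartilage, at 10.7 FPKM in WT against 1.83 in Dspp+/- and 6.59 in Dspp-/- and Dkk1 at 38.5, 14.9 and 19.2 FPKM in WT, Dspp+/- and Dspp-/-, while Sost, given above, had a log2 ratio of -0.70, nearer to WT than the list median. Axin2, a target of the pathway, stood at 2.81 FPKM in WT against 1.35 in Dspp+/- and 1.86 in Dspp-/-.

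In the hedgehog and PTHrP list, which paces chondrocyte hypertrophy, 12 of 13 compared genes were below WT and 3 by at least 2-fold. Ihh, the hedgehog of prehypertrophic chondrocytes, stood at 17.5, 4.77 and 5.71 FPKM in WT, Dspp+/- and Dspp-/-, 0.272-fold of WT (0.240 to 0.307). Its receptor Ptch1, also a target of the signal, stood at 18.8 FPKM in WT against 8.06 in Dspp+/- and 14.2 in Dspp-/-, and Pth1r, the receptor of PTHrP and parathyroid hormone, at 164, 60.5 and 76.6 FPKM in WT, Dspp+/- and Dspp-/-. Pthlh, the PTHrP gene, stood at 2.20 FPKM in WT against 2.90 in Dspp+/- and 2.69 in Dspp-/-, with an interval of its ratio that spans equality (0.974 to 1.80).

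The BMP and GDF list had a median of -0.42 and 2 of 26 genes at least 2-fold lower, Bmp7 at 6.70, 2.42 and 3.11 FPKM in WT, Dspp+/- and Dspp-/- and the target gene Id3 at 156 FPKM in WT against 71.6 in Dspp+/- and 78.99 in Dspp-/-. The receptor genes Bmpr1a and Bmpr2 stood at 0.899 and 0.977-fold of WT. The TGF-beta list had 3 of 24 genes at least 2-fold lower, among them the ligand Tgfb2 at 33.8, 16.2 and 20.4 FPKM in WT, Dspp+/- and Dspp-/- and the target Ccn2, connective tissue growth factor, at 379 FPKM in WT against 188 in Dspp+/- and 241 in Dspp-/-. Ccn2 lay close to the 2-fold line and shares 23.2% of its exon length with a gene on the opposite strand, so its call is uncertain. Lists of the FGF, IGF and Notch pathways had medians of -0.18, -0.22 and -0.18, with Fgfr1, a receptor of skeletal and many other cells, at 64.6, 31.04 and 38.7 FPKM in WT, Dspp+/- and Dspp-/- and Hey1, a Notch target, at 17.4 FPKM in WT against 7.67 in Dspp+/- and 12.6 in Dspp-/- as the members past 2-fold in the first and the last.

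Muscle genes took 7.01% of all FPKM in WT and 8.20% in Dspp+/-, and the fibre types differed among themselves. Mouse jaw muscle is mainly built of fast fibres, in which Myh4, Myh1 and Myh2 encode the IIb, IIx and IIa myosin heavy chains from the most glycolytic to the most oxidative. Myh4 stood at 124, 18.2 and 111 FPKM in WT, Dspp+/- and Dspp-/-, 0.147-fold of WT (0.141 to 0.153). Myh1 stood at 671 FPKM in WT against 747 in Dspp+/- and 726 in Dspp-/- and Myh2 at 342, 706 and 359 FPKM in WT, Dspp+/- and Dspp-/-, 2.07-fold above WT (2.04 to 2.09). Of the summed FPKM of these 3 chains, Myh4 made up 10.9% in WT against 1.23% in Dspp+/- and 9.29% in Dspp-/-, and Myh2 made up 30.1%, 48.0% and 30.02%. Dspp+/- stood apart in both shares, and WT and Dspp-/- lay close together.

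Other members of the fast fibre list stood on both sides of WT. Actn3, alpha-actinin-3, stood at 122 FPKM in WT against 31.02 in Dspp+/- and 89.5 in Dspp-/-, Mybpc2, the fast myosin-binding protein C, at 129, 56.8 and 95.04 FPKM in WT, Dspp+/- and Dspp-/-, and Pvalb, the calcium buffer parvalbumin, at 567 FPKM in WT against 294 in Dspp+/- and 453 in Dspp-/-. Tnnt3, fast troponin T, stood at 1450.2, 1950.1 and 1218 FPKM in WT, Dspp+/- and Dspp-/- and Mylpf, a fast myosin light chain, at 932 FPKM in WT against 1048 in Dspp+/- and 811 in Dspp-/-. The list had a median of 0.16, which changed sign under some scalings, with 3 of 16 genes at least 2-fold lower and 1 higher. The slow fibre list had 10 of 10 compared genes above WT and a median of 0.65. Myl2, the slow and cardiac regulatory light chain, stood at 4.81, 17.7 and 4.01 FPKM in WT, Dspp+/- and Dspp-/-, 3.68-fold above WT (3.14 to 4.33), and Tnnt1, slow troponin T, at 2.85 FPKM in WT against 5.55 in Dspp+/- and 1.98 in Dspp-/-. Mybpc1, the slow myosin-binding protein C, stood at 189.8, 322 and 261 FPKM in WT, Dspp+/- and Dspp-/-.

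Oxidative muscle genes were above WT in 10 of 10. Fabp3, which carries fatty acids, stood at 171 FPKM in WT against 392 in Dspp+/- and 163 in Dspp-/-, a value that is uncertain because 20.5% of the 100-base stretches in Fabp3 occur in other genes. Mb, myoglobin, stood at 1204, 1763 and 944 FPKM in WT, Dspp+/- and Dspp-/-, Ckmt2, the mitochondrial creatine kinase, at 421 FPKM in WT against 853 in Dspp+/- and 584 in Dspp-/-, and Ppargc1a, a coactivator of mitochondrial genes, at 2.62, 5.74 and 4.75 FPKM in WT, Dspp+/- and Dspp-/-. Genes of calcium handling were above WT in 13 of 13 with a median of 0.60, and those of the sarcomere and Z disc in 19 of 21 with a median of 0.56, including Acta1, skeletal actin, at 5609 FPKM in WT against 8162 in Dspp+/- and 7150.1 in Dspp-/-. Actc1, the cardiac actin that is also made in immature skeletal muscle, stood at 10.9, 32.7 and 35.2 FPKM in WT, Dspp+/- and Dspp-/-. The muscle regulatory factors had a median of 0.29.

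Genes of fatty acid oxidation were above WT in 15 of 15 compared genes with a median of 0.72. Acadl, the long-chain acyl-CoA dehydrogenase, stood at 64.4 FPKM in WT against 131 in Dspp+/- and 96.4 in Dspp-/-, and Hadha, a subunit of the trifunctional protein, at 19.6, 37.5 and 23.2 FPKM in WT, Dspp+/- and Dspp-/-. Pdk4, which shuts pyruvate out of the citric acid cycle, stood at 52.7 FPKM in WT against 297 in Dspp+/- and 133 in Dspp-/-, 5.63-fold above WT (5.44 to 5.83). Ucp3, a mitochondrial carrier of muscle that goes with fatty acid use, stood at 2.24, 18.4 and 7.48 FPKM in WT, Dspp+/- and Dspp-/-, 8.20-fold above WT (6.90 to 9.82), and Angptl4, a secreted inhibitor of lipoprotein lipase, at 4.20 FPKM in WT against 8.44 in Dspp+/- and 4.01 in Dspp-/-. In these 3 genes, Dspp+/- was the highest of the libraries.

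Citric acid cycle genes were above WT in 16 of 16 with a median of 0.56. Glycolysis genes had a median of 0.086 that turned in sign under some scalings. Within glycolysis, Ldhb, the lactate dehydrogenase subunit of oxidative tissue, stood at 61.3, 149 and 64.3 FPKM in WT, Dspp+/- and Dspp-/-, 2.44-fold above WT (2.32 to 2.57), and Ldha, the subunit of glycolytic muscle, at 174 FPKM in WT against 158 in Dspp+/- and 159 in Dspp-/-. Ldhb thus made up 26.0% of the summed FPKM of the pair in WT, 48.7% in Dspp+/- and 28.8% in Dspp-/-.

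**Figure D5:**
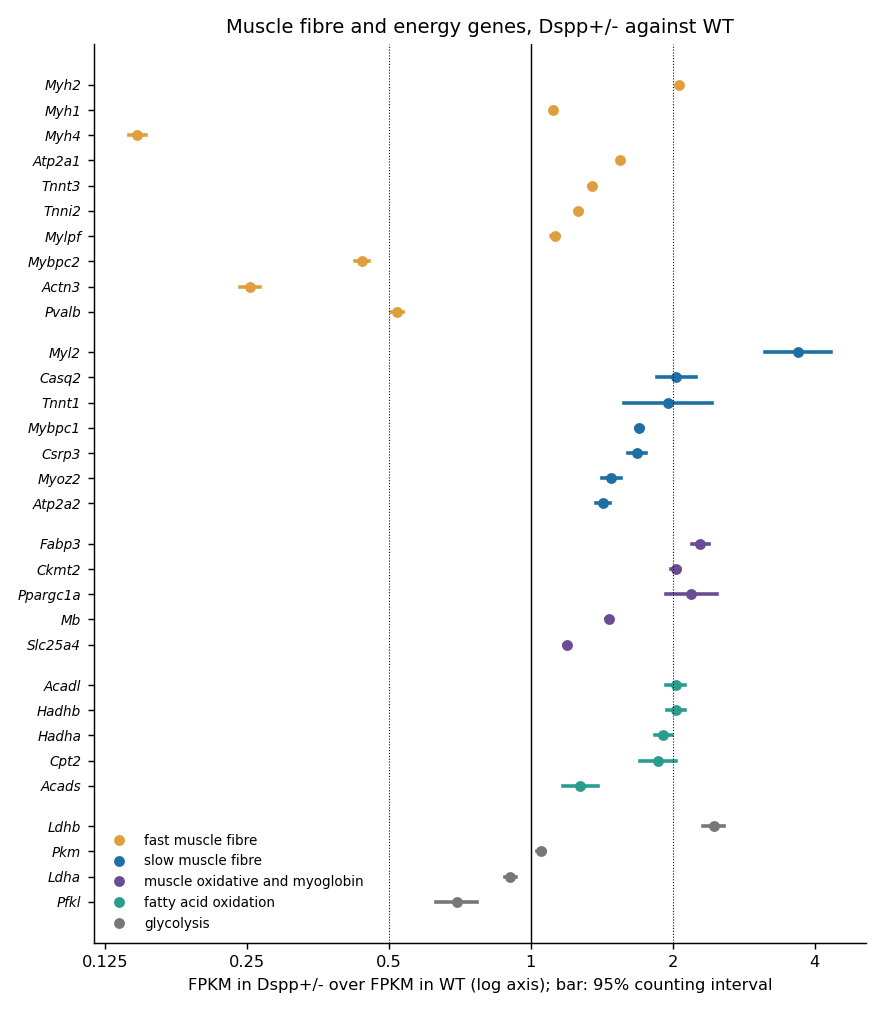
Ratio of FPKM in Dspp+/- to WT (x axis, log scale) with its 95% counting interval for genes of fast, slow and oxidative muscle, fatty acid oxidation and glycolysis; the dotted lines mark 2-fold. Myh4 lies lowest at 0.147, Myh2 at 2.07, and the 5 fatty acid oxidation genes drawn lie between 1.27 for Acads and 2.03 for Acadl.

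The 13 protein genes of the mitochondrial genome were all above WT, with a median of 0.85, and mt-Co1 stood at 22314, 38421 and 35989 FPKM in WT, Dspp+/- and Dspp-/-. The nuclear genes of the same complexes lay nearer to WT. The nuclear subunits of complex I had a median of 0.34, those of complexes II and III 0.46, of complex IV 0.31 and of complex V 0.40. For Dspp-/- these 4 medians were 0.048, 0.14, 0.067 and 0.19. All 100-base stretches of mt-Co2, mt-Co3 and mt-Nd4l also occur in other annotated genes. The share was 98.3% for mt-Atp6, 96% for mt-Nd3, 60.9% for mt-Nd4 and 31.0% for mt-Co1. The own values of these genes, mt-Co1 included, are therefore uncertain. Cytosolic ribosomal protein genes were below WT in 70 of 78 with a median of -0.22 and 1 past 2-fold, Rpl7a at 76.6 FPKM in WT against 30.4 in Dspp+/- and 30.98 in Dspp-/-, a value that is uncertain because 49.1% of its stretches of 100 bases are also found elsewhere in the annotation. Proteasome genes had a median of 0.22 and mitochondrial ribosomal protein genes one of 0.20, the latter with a sign that turned under some scalings.

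In a set of clock genes WT and Dspp-/- lay close together and Dspp+/- apart. Transcripts of the clock cycle over the day in most tissues, and the hour of collection is not given in the sources used here. Dbp, a direct target of the clock, stood at 19.6, 2.18 and 17.4 FPKM in WT, Dspp+/- and Dspp-/-, 0.111-fold of WT (0.0933 to 0.131). Nr1d1, the repressor Rev-erb alpha, stood at 52.6 FPKM in WT against 25.5 in Dspp+/- and 60.9 in Dspp-/-, Per3 at 3.13, 1.54 and 3.74 FPKM in WT, Dspp+/- and Dspp-/-, and Bhlhe41, a repressor of clock genes, at 7.73 FPKM in WT against 2.76 in Dspp+/- and 5.92 in Dspp-/-. Arntl, which encodes Bmal1, stood at 4.33, 6.45 and 3.53 FPKM in WT, Dspp+/- and Dspp-/-, and Nfil3, which binds the same sites as Dbp, at 12.02 FPKM in WT against 20.5 in Dspp+/- and 11.3 in Dspp-/-. The list of 17 compared genes had a median of -0.44 with 3 at least 2-fold lower, and for Dspp-/- the median was 0.0047.

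Stress-related lists stood nearer to WT. Heat shock genes were above WT in 17 of 17 with none past 2-fold and a median of 0.50, and Hsp90aa1, an inducible chaperone, stood at 33.5, 64.4 and 43.9 FPKM in WT, Dspp+/- and Dspp-/-. Glucocorticoid-responsive genes had a median of -0.34 with 11 of 13 below WT. Of the 13, 1 was at least 2-fold higher, with a log2 ratio of 2.47, and 1 was at least 2-fold lower. Ddit4, an inhibitor of mTOR signalling that glucocorticoid and low oxygen induce, stood at 150.1 FPKM in WT against 49.8 in Dspp+/- and 43.04 in Dspp-/-, and Tsc22d3, GILZ, at 153, 87.3 and 91.6 FPKM in WT, Dspp+/- and Dspp-/-. Hypoxia genes had a median of -0.045, and antioxidant genes one of 0.29 with Gclm, a subunit of the glutathione-making ligase, at 4.52 FPKM in WT against 10.1 in Dspp+/- and 9.40 in Dspp-/- and Gpx3, the secreted glutathione peroxidase, at 1649, 886 and 1069.7 FPKM in WT, Dspp+/- and Dspp-/-. Immediate early genes, which tissue handling can induce, had a median of 0.010 that turned in sign under some scalings. Of the 26 compared, 2 were at least 2-fold higher and 0 at least 2-fold lower. Under 2-fold, Fos stood at 5.08 FPKM in WT against 8.64 in Dspp+/- and 11.1 in Dspp-/- and Egr1 at 10, 10.2 and 14.98 FPKM in WT, Dspp+/- and Dspp-/-.

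Vessel, nerve and smooth muscle lists stood close to the median of all genes. The endothelial median was 0.094, a sign that turned under some scalings, with Pecam1 at 31.2 FPKM in WT against 38.6 in Dspp+/- and 36.98 in Dspp-/- and Cdh5, the endothelial cadherin, at 48.9, 56.2 and 52.8 FPKM in WT, Dspp+/- and Dspp-/-. Plvap, of fenestrated vessels, was the member past 2-fold, at 61.4 FPKM in WT against 28.8 in Dspp+/- and 38.97 in Dspp-/-. The smooth muscle and pericyte median was 0.011 and that of Schwann cells and nerve 0.0021, and both turned in sign under some scalings. In the stromal niche of the marrow, Cxcl12, which holds blood stem cells in place, stood at 41.3, 67.5 and 55.6 FPKM in WT, Dspp+/- and Dspp-/-, Kitl, the ligand of Kit, at 13.2 FPKM in WT against 21.9 in Dspp+/- and 21.9 in Dspp-/- and Vcam1, an adhesion molecule, at 6.67, 14.4 and 10.6 FPKM in WT, Dspp+/- and Dspp-/-. The list as a whole had a median of 0.16 that turned in sign under some scalings. Tendon and fibrous layer genes had a median of -0.24, with Scx, the tendon transcription factor, at 10.1 FPKM in WT against 5.32 in Dspp+/- and 4.66 in Dspp-/-.

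The fat cell list had a median of 0.51, with 10 of 17 compared genes above WT, 2 at least 2-fold higher and 2 at least 2-fold lower. Lpl, lipoprotein lipase, stood at 49.98, 119.8 and 96.5 FPKM in WT, Dspp+/- and Dspp-/- and Acsl1, which activates fatty acids, at 12.6 FPKM in WT against 31.5 in Dspp+/- and 26.6 in Dspp-/-. Plin1, which coats the fat droplet, stood at 1.41, 0.501 and 4.61 FPKM in WT, Dspp+/- and Dspp-/-, 0.354-fold of WT (0.254 to 0.489), and Adipoq, adiponectin, at 5.80 FPKM in WT against 6.47 in Dspp+/- and 13.1 in Dspp-/-. Of other tissues near the joint, none of 23 keratin genes and none of 6 enamel and tooth genes reached the mean of 1 FPKM, while 3 of 15 epithelium genes and 3 of 9 salivary gland genes did. Epcam, an epithelial adhesion molecule, stood at 6.505, 3.92 and 3.66 FPKM in WT, Dspp+/- and Dspp-/-, and Amy1, the salivary amylase, at 3.51 FPKM in WT against 8.09 in Dspp+/- and 7.65 in Dspp-/-. The value of Amy1 is uncertain, because 32.7% of its exon length overlaps another gene on the same strand. In addition, 17.2% of its 100-base stretches occur in other genes.

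Differences of 2-fold were spread over the chromosomes. Autosomal medians ran from 0.022 to 0.13, and chromosome 6, which holds the kappa locus, had 10.1% of its compared genes at least 2-fold higher. In the quartile of genes with the shortest merged exon length 8.72% were at least 2-fold higher and 4.47% at least 2-fold lower, against 1.94% and 1.39% in the longest. By the GC content of the longest transcript the median log2 ratio was 0.13 in the lowest quartile and -0.052 in the highest, and the part of length and GC in the differences of single lists was not tested.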

How the data were processed

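RNA-seq of mouse condyles was deposited by the authors as 1 table of FPKM per gene for WT, Dspp+/- and Dspp-/-. The submitters' processing notes name FastQC 0.11.5, HISAT2 2.1.0, StringTie 1.3.3b and DESeq 1.28.0, with no role given, and a human genome build for mouse samples. The unit FPKM is not named in the table. It was read from the values, since 98.6% of the values under 100 fragments were whole numbers of fragments (tolerance 0.05) once divided by what 1 fragment is worth. The build of the gene positions is not named, and 589 of 26652 matched genes have the same start and end as in GRCm38. With 1 library per genotype no count test was run.

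From the FPKM, log2((Dspp+/- + 1)/(WT + 1)) was computed for genes whose FPKM averaged at least 1 across the 3 libraries. The pseudocount understates ratios of scarce genes. Folds are plain ratios of FPKM, with 95% Clopper-Pearson intervals from recovered fragments, and are given without an interval where no fragment number was recovered. A gene at 0 was bounded at 3 fragments per library. Named genes were the 15 highest and 15 lowest by log2 ratio without immunoglobulin segments and unnamed genes, the 10 largest gains and losses in FPKM, list members at least 2-fold apart, at either end or most abundant in their list, Il6, Tlr4, Mmp2 and Fn1 as stained proteins, and sex markers. Some of these are not reported here. Others were chosen after their values were seen. Members and lists were chosen with earlier results of these data known. The deposited table gave 1 column per sample. Alternatives were pseudocounts of 0.1 and 5, filters, scalings, thresholds and, added after seeing the data, TPM. The calculation was tested on simulated data. Dspp, Gp1bb and Ahsp are not analysed here. Calculations were made in Python 3.11.15, with scipy 1.17.1 for intervals, pandas 2.3.3 and numpy 2.4.6 for tables and matplotlib 3.10.9 for plots.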

Additional observations from a re-analysis of the deposited data

Results flagged for a closer look

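In 2 genes the difference from WT had opposite directions in Dspp+/- and Dspp-/-, by at least 2-fold on both sides, each with 1 library, so the difference between the genotypes was not tested. Cfd, adipsin, a secreted complement factor of fat cells, stood at 23.5, 8.50 and 62.04 FPKM in WT, Dspp+/- and Dspp-/-, a log2 ratio of -1.37 for Dspp+/- and 1.36 for Dspp-/-. Of the 17 compared genes of the fat cell list, 7 had this order of libraries and 10 were above WT in Dspp+/-, Adipoq among them. The order was first read in Cfd, itself a member of the list. Its share over all genes compared was not counted, so 7 of 17 cannot be called unusual. Of the 7, Plin1 stood at 1.41 FPKM in WT against 0.501 in Dspp+/- and 4.61 in Dspp-/-, Cidec, a droplet protein, at 2.26, 1.62 and 9.90 FPKM in WT, Dspp+/- and Dspp-/-, and Ucp1 of brown fat at 0.423 FPKM in WT against 0.104 in Dspp+/- and 4.92 in Dspp-/-. Igkv6-14, a kappa variable segment, had a log2 ratio of 1.08 for Dspp+/- and -1.09 for Dspp-/-, and rested on 41, 110 and 17 fragments in WT, Dspp+/- and Dspp-/-.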

How the results depend on the processing

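The 636 higher and 373 lower genes became 971 and 605 with a pseudocount of 0.1, 185 and 156 with a pseudocount of 5, 1501 and 1166 at 1.5-fold and 124 and 24 at 4-fold. With a mean of at least 5 FPKM, 281 genes were higher and 272 lower. After hemoglobin, muscle and immunoglobulin genes were taken out of the scaling there were 470 higher and 561 lower and a median of -0.092 over all genes. TPM, added after seeing the data, gave 442 and 594 and a median of -0.12. Rescaling without mitochondrial genes gave 660 and 349, and asking that the counting interval lie past 2-fold gave 559 and 312. The cause of these shifts beyond the settings themselves was not tested. Of the 28 lists called, 18 to 28 stayed past 1.5-fold under each of the 11 alternatives that change list medians, the fewest with a pseudocount of 5, and none turned in direction. No paired analysis was possible because each genotype has 1 library and the values come from no test. Depth limits the values of genes near 3 fragments: 65 higher genes had no more than that in WT and 10 lower genes no more than that in Dspp+/-.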
